A study of Mus musculus with 9 samples.

Results

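The 8 genes described here, *Adgre1*, *Cd163*, *Mrc1*, *F13a1*, *Lyve1*, *Folr2*, *Cbr2*, and *Timd4*, are markers commonly used for resident-like F4/80 high macrophages, out of 50559 genes listed in the count data. They were chosen by symbol with their levels and their changes in these same libraries already known, so the values below describe them and do not test the choice. RNA was sequenced from CD45+CD11b+ cells sorted from the quadriceps of *mdx* mice, which lack dystrophin and develop muscular dystrophy. The mice were 4.5 weeks old and had received vehicle, the mineralocorticoid receptor antagonist spironolactone, or the glucocorticoid prednisolone for 7 days. Each group had 3 libraries, and each library came from the pooled quadriceps cells of 3 mice, so a library averages several animals. Mice of both sexes were used in every group, all groups were dystrophic, and no healthy strain was included.

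Tissue macrophages come from embryonic precursors that maintain themselves in place and from blood monocytes that enter the tissue. In damaged muscle, monocyte-derived cells clear debris, and macrophages with scavenger receptors on their surface are abundant as fibers are repaired. F4/80, the protein encoded by *Adgre1*, is carried by nearly all mouse tissue macrophages and is highest on resident cells, while CD163, CD206 (encoded by *Mrc1*), LYVE1, FOLR2, and TIM-4 (encoded by *Timd4*) are receptors used to mark resident subsets.

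The sort gate was seen in the RNA. *Ptprc*, encoding CD45, lay between 545 and 660 on the counts-per-million scale (CPM) in the 9 libraries, and *Itgam*, encoding CD11b, between 978 and 1486 CPM. The general macrophage genes *Lyz2* and *Ctsd* had vehicle means of 9874 and 7142 CPM. The gate does not select F4/80 high cells, so every value is an average over the whole sorted sample, and fewer cells of a type cannot be told apart from less RNA in each cell. Genes of cell types outside the gate were also counted. The fibroblast gene *Col1a1* measured 230 to 401 CPM and the skeletal muscle gene *Acta1* 101 to 318 CPM in the 9 libraries. The source of this RNA was not tested. CPM values were scaled by the trimmed mean of M values (TMM) of edgeR. Each library had 31469815 to 32943512 counts on genes, and even the lowest marker value, *Timd4* in spironolactone 1, rested on 107 counts.

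Other CD11b+ cells varied between libraries. The summed level of 12 neutrophil genes was 5385 CPM in vehicle 3 and 4030 CPM in spironolactone 3, and lay between 824 and 1691 CPM in the other 7 libraries. Every spironolactone library (1514 to 4030 CPM) was above every prednisolone library (883 to 1142 CPM) in this sum. The summed level of 9 monocyte genes was 1337 CPM in vehicle 1 and between 1881 and 3158 CPM elsewhere. The 8 eosinophil genes summed to 101 to 125 CPM in vehicle, 96.4 to 152 CPM in spironolactone, and 32.8 to 47.3 CPM in prednisolone libraries. Much of this sum was 1 gene, *Alox15*, at 49.6 to 70.9 CPM in vehicle and 14.9 to 24.2 CPM in prednisolone. *Siglecf* measured 21.3 to 24.5 CPM in vehicle and 12.4 to 16.0 CPM in prednisolone. The sum is therefore not a measure of eosinophil number. No part of these differences in the marker values was tested, except that values without vehicle 1, vehicle 3, or spironolactone 3 are given where they change a result.

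**Figure D1:**
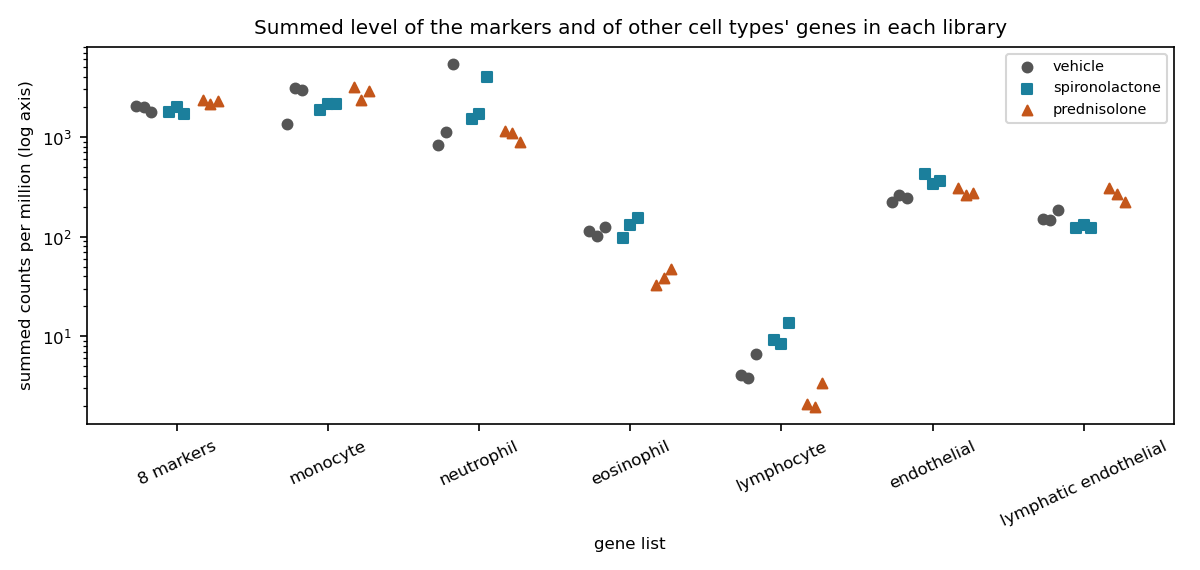
Summed TMM-scaled CPM, on a log axis, of the 8 markers and of 6 lists of other cell types' genes, with 1 point per library and groups by color and symbol. The neutrophil points of vehicle 3 (5385) and spironolactone 3 (4030) stand above the rest, and the eosinophil points of prednisolone (32.8 to 47.3) lie below those of vehicle.

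The promoters of the 4 markers whose prednisolone libraries all lay above vehicle, *Cd163*, *Lyve1*, *F13a1*, and *Timd4*, are printed here. Each run covers the 250 bases before and 50 bases after the start of the GENCODE canonical transcript, read 5′ to 3′ on the strand of the gene. Capitals mark matches, on either strand, to GAGGAA, the core bound by the myeloid factor PU.1, TGCTGA, a MAF half-site, AGAACA, a half-site of the glucocorticoid receptor, and TGAGTCA, the AP-1 site.
Cd163 promoter (GRCm39, chr6:124281356-124281655, plus strand): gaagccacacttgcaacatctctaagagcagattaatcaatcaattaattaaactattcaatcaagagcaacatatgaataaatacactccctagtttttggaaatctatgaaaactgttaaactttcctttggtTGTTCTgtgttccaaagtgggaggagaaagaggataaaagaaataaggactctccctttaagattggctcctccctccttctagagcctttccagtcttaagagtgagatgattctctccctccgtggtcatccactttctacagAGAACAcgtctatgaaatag
Lyve1 promoter (GRCm39, chr7:110462411-110462710, minus strand): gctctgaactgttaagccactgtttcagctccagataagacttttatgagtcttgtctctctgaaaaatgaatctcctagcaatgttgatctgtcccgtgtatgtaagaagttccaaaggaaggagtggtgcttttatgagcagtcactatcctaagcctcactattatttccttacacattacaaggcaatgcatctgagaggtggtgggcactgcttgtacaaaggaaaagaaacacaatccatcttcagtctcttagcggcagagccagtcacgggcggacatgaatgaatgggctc
F13a1 promoter (GRCm39, chr13:37233215-37233514, minus strand): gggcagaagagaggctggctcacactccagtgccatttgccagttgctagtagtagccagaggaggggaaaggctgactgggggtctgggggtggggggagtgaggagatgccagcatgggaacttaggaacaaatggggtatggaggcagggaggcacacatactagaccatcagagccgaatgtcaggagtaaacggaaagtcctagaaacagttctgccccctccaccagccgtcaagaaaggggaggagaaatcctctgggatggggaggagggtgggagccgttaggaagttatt
Timd4 promoter (GRCm39, chr11:46701370-46701669, plus strand): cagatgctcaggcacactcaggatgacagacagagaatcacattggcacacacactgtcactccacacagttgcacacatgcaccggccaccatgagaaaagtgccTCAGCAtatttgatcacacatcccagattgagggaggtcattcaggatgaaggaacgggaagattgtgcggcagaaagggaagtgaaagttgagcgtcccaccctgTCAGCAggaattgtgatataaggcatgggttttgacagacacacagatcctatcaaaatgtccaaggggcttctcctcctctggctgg

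The letters AGAACA were present in 2 of the 7 marker promoters searched, those of *Cd163* and *Folr2*, and in 17.0% of 21770 promoters of the same length. *Cd163* held them at 2 places, beginning 115 bases before and 30 bases after the start. GAGGAA was present in 2 of 7, those of *Cbr2* and *Mrc1*, against 27.5% of all, and *Mrc1* held it 3 times. TGCTGA was found in 3 of 7 against 17.9%, 2 times in *Timd4*. The AP-1 letters TGAGTCA were found in *Folr2* alone of the 7, and in 4.70% of all promoters. The *Lyve1* and *F13a1* windows held none of the 4 motifs. These are matches of letters in a short window, and no binding was measured.

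The levels of the 8 markers were compared with one another only on the transcripts-per-million scale (TPM), which divides by the summed exon length of each gene. *Adgre1* was the highest of the 8 in 9 of 9 libraries, with a vehicle mean of 849 ± 89.7 TPM (SD, n = 3). *Folr2* (437 ± 45.5 TPM), *Cbr2* (357 ± 106 TPM), *F13a1* (332 ± 57.3 TPM), and *Mrc1* (258 ± 60.2 TPM) followed in vehicle. The last 3 were not separated from their neighbors beyond the spread, since *F13a1* was above *Cbr2* in 5 of 9 libraries and *Mrc1* above *F13a1* in 2 of 9. *Lyve1* (12.4 ± 5.55 TPM), *Cd163* (11.6 ± 4.56 TPM), and *Timd4* (7.15 ± 4.19 TPM) formed a low group, each below the other 5 genes in every library, and within it *Cd163* was above *Lyve1* in 3 of 9 libraries and above *Timd4* in 8 of 9. In prednisolone libraries *F13a1*, at 494 ± 30.4 TPM, stood beside *Folr2* at 464 ± 12.6 TPM.

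*Adgre1* (chr17:57665573-57790527, plus strand), an adhesion G protein-coupled receptor, was nearly level across the study (coordinates here and below are of GRCm39, from the GENCODE annotation). Its vehicle libraries measured 710, 683, and 631 CPM, its spironolactone libraries 658, 702, and 617 CPM, and its prednisolone libraries 655, 646, and 733 CPM. All 3 groups overlapped. The log2 fold change was 0.01 with a 95% interval of -0.20 to 0.21 in prednisolone vs. vehicle, and -0.03 with an interval of -0.24 to 0.17 in spironolactone vs. vehicle.

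**Figure D2:**
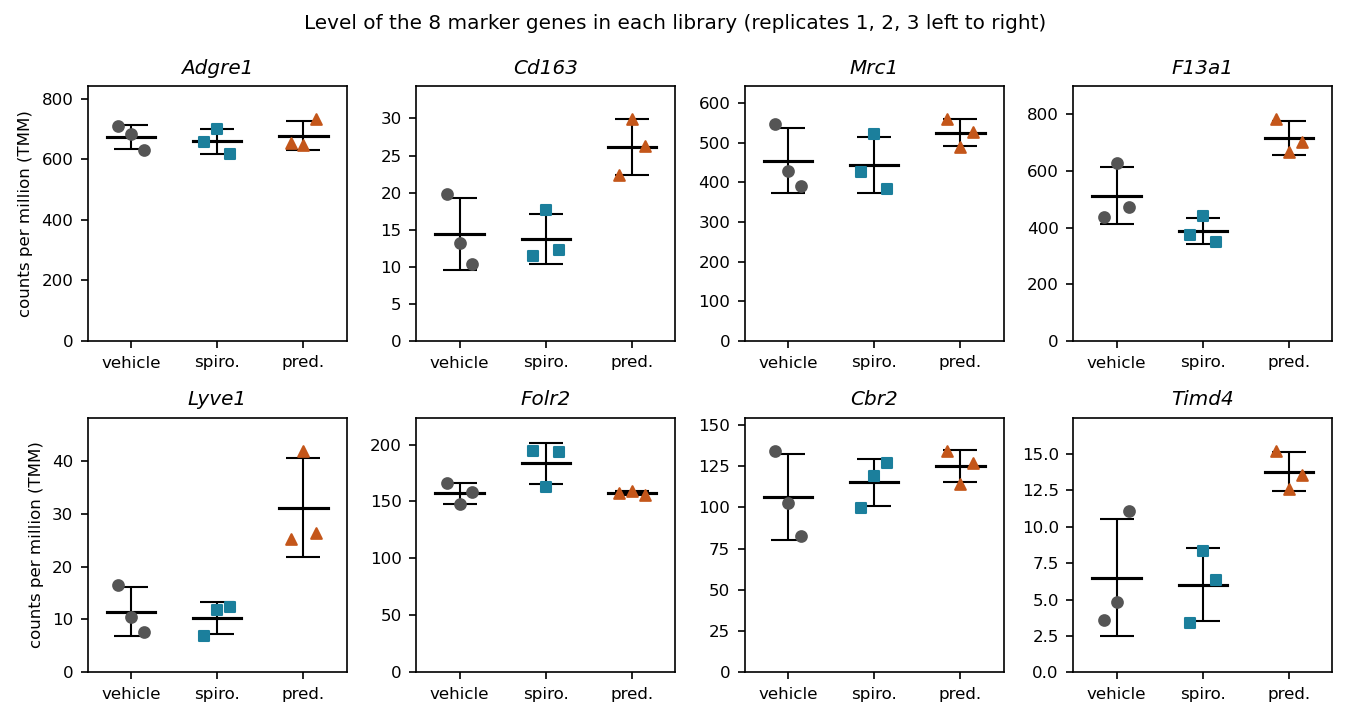
TMM-scaled CPM of the 8 markers, 1 point per library (replicates 1, 2, and 3 from left to right), with a line at the mean and bars of 1 SD, and each axis starting at 0. All 3 prednisolone points lie above all vehicle and spironolactone points for *Cd163*, *F13a1*, *Lyve1*, and *Timd4*, while *Adgre1* stays between 617 and 733 in all 9 libraries.

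Prednisolone vs. vehicle addressed what a glucocorticoid does to these cells. All 8 markers had a log2 fold change above 0, from 0.00 (*Folr2*) to 1.44 (*Lyve1*), with a median of 0.36 against -0.01 over 16618 genes tested. For 4 of 8, *Lyve1*, *Timd4*, *Cd163*, and *F13a1*, every prednisolone library was above every vehicle library, which was the case for 10.4% of all genes tested. None of the 8 passed an adjusted p of 0.05 in edgeR's quasi-likelihood test, which called 1.76% of genes in this comparison in either direction. At an unadjusted p under 0.05 there were 4, the same genes whose libraries did not overlap, against 14.2% of all genes tested. DESeq2 on all 9 libraries called 3 (*Cd163*, *F13a1*, and *Lyve1*), against 4.47% of all genes. With limma-voom 0 of the 8 were called, and 280 of all 16618 genes tested. Because the markers were picked with these changes known, the p-values describe them and support nothing further.

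*Lyve1* (chr7:110448585-110462460, minus strand), a hyaluronan receptor of perivascular macrophages and lymphatic endothelium, had the largest difference of the 8 in edgeR on all 9 libraries. Without vehicle 3 and spironolactone 3 together that of *Timd4*, at 1.71, was larger. Vehicle libraries measured 16.5, 10.5, and 7.54 CPM, spironolactone libraries 6.80, 11.7, and 12.3 CPM, and prednisolone libraries 25.2, 41.9, and 26.3 CPM. Prednisolone 2 stood highest and no prednisolone library reached down to the other groups, so that the group mean of 31.1 ± 9.32 CPM (SD, n = 3) was 2.70-fold that of vehicle in the fit (log2 fold change 1.44 ± 0.34 SE, adjusted p = 0.0816, edgeR). With any 1 library left out, the difference was 1.16 (without prednisolone 2) to 1.79 (without vehicle 1), and the adjusted p 0.0303 (without vehicle 1) to 0.285 (without vehicle 2). Of 6 lymphatic endothelial genes, 5 were at or below 5.06 CPM in every library, and none of these 5 passed the test. In prednisolone vs. vehicle *Flt4* (0.61 ± 0.41) and *Prox1* (0.04 ± 0.58) lay above 0 and *Ccl21a*, *Reln*, and *Mmrn1* below. *Pdpn*, a glycoprotein of lymphatic vessels that activated macrophages also make, was the sixth, at 141 to 182 CPM in vehicle and 219 to 301 CPM in prednisolone (0.73 ± 0.12, adjusted p = 0.0108). In spironolactone vs. prednisolone *Pdpn* was called lower (-1.13 ± 0.13, adjusted p = 0.000414), while 4 of these 6 genes lay above 0 and 2 below.

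*Cd163* (chr6:124281606-124307560, plus strand), the receptor for haptoglobin-hemoglobin complexes, measured 19.8, 13.2, and 10.3 CPM in vehicle, 11.5, 17.6, and 12.3 CPM in spironolactone, and 22.4, 29.9, and 26.2 CPM in prednisolone. The lowest prednisolone library was just above the highest vehicle library. The difference was 0.86 ± 0.23 (adjusted p = 0.0992, 1.81-fold), and with any 1 library left out it was 0.67 (without vehicle 3) to 1.16 (without vehicle 1), at an adjusted p of 0.00633 (without vehicle 1) to 0.320 (without prednisolone 2). Vehicle 1, the library with the lowest monocyte sum, held the highest vehicle value of 6 of the 8 markers, all but *F13a1* and *Timd4*, and the part of the monocyte level in this was not tested.

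*Timd4* (chr11:46701620-46735177, plus strand), a phosphatidylserine receptor for the uptake of dying cells and a marker of self-maintaining macrophages, was the scarcest of the 8. Vehicle libraries measured 3.59, 4.84, and 11.1 CPM, spironolactone libraries 3.39, 8.35, and 6.36 CPM, and prednisolone libraries 15.2, 12.6, and 13.5 CPM. Vehicle 3 lay close to the prednisolone libraries, and the vehicle coefficient of variation of 61.8% was the widest of any marker and group. The log2 fold change was 1.08 ± 0.42 (adjusted p = 0.285). Without vehicle 3, which also had the most neutrophil RNA, it was 1.71 with an adjusted p of 0.0258, so leaving out this 1 library changed both the size and the call. Without vehicle 1 it was 0.79 (adjusted p = 0.371), and the highest adjusted p, 0.580, came without vehicle 2.

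*F13a1* (chr13:37051152-37234277, minus strand) encodes the A subunit of coagulation factor XIII, a transglutaminase that crosslinks fibrin and is made by monocytes, macrophages, and platelets. Predicted genes on the opposite strand share 74 of its exonic bases. It measured 438, 628, and 472 CPM in vehicle, 374, 441, and 351 CPM in spironolactone, and 783, 666, and 702 CPM in prednisolone. The 3 groups stood in the order prednisolone, vehicle, spironolactone by their means of 717 ± 59.7, 512 ± 101, and 389 ± 46.9 CPM, although spironolactone 2 lay just above vehicle 1. The difference in prednisolone vs. vehicle was 0.48 ± 0.13 (adjusted p = 0.0938), and with any 1 library left out it was 0.38 (without vehicle 1) to 0.66 (without vehicle 2), at an adjusted p of 0.0311 (without vehicle 2) to 0.295 (without prednisolone 1). Of 8 platelet genes, *Gp9*, *Gp1bb*, *Gp5*, and *Tubb1* did not pass the count filter and did not exceed 0.41 CPM in any library. Of the other 4, *Gp1ba* (0.21 ± 0.30) and *Treml1* (0.28 ± 0.44) lay above 0 in prednisolone vs. vehicle and *Ppbp* (-0.12 ± 0.40) and *Itga2b* (-0.24 ± 0.48) below, and 0 passed the test. *Ppbp* measured 9.35 to 20.6 CPM in vehicle and 9.98 to 15.5 CPM in prednisolone, and the list summed to 12.7 to 24.3 CPM in vehicle and 13.8 to 18.6 CPM in prednisolone. The 9 monocyte genes summed to 1337 to 3107 CPM in vehicle and 2327 to 3158 CPM in prednisolone, and 0 of 9 passed the test. Of these genes 3 lay above 0, among them *Chil3* (0.93 ± 0.38), and 6 below, among them *Ccr2* (-0.16 ± 0.16). The median was -0.26 and the range -1.02 to 0.93. *Chil3* alone measured 290 to 774 CPM in vehicle and 999 to 1259 CPM in prednisolone, so the sum does not show the direction of most of the list.

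The other 3 scavenger and metabolic markers overlapped between prednisolone and vehicle. *Mrc1* (chr2:14234151-14336926, plus strand), the mannose receptor that takes up glycoproteins and pathogens, measured 546, 428, and 390 CPM in vehicle, 425, 521, and 384 CPM in spironolactone, and 559, 490, and 526 CPM in prednisolone. Its prednisolone difference was 0.21, with a 95% interval of -0.08 to 0.50, and was 0.11 without vehicle 3 and 0.36 without vehicle 1. *Cbr2* (chr11:120620312-120622940, minus strand), a carbonyl reductase, measured 134, 103, and 82.6 CPM in vehicle, 99.4, 119, and 127 CPM in spironolactone, and 134, 114, and 127 CPM in prednisolone. The intervals leave room for an increase of *Cbr2* up to 0.57 or a decrease of 0.10 on the log2 scale, and the difference was 0.08 without vehicle 3 and 0.43 (adjusted p = 0.0531) without vehicle 1.

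*Folr2* (chr7:101489195-101506401, minus strand), the folate receptor beta, overlapped between prednisolone and vehicle as well. It measured 166, 147, and 158 CPM in vehicle, 195, 163, and 193 CPM in spironolactone, and 157, 159, and 156 CPM in prednisolone. The prednisolone libraries had an SD of 1.58 CPM and lay within the vehicle range, with a log2 fold change of 0.00 and an interval of -0.20 to 0.20. Spironolactone 1 and 3 were the highest 2 libraries of the study for this gene. Opposite-strand predicted genes share 975 of the 1593 exonic bases of *Folr2*, and since the strand setting of the counting is not given in the sources used here, their reads could not be told apart.

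**Figure D3:**
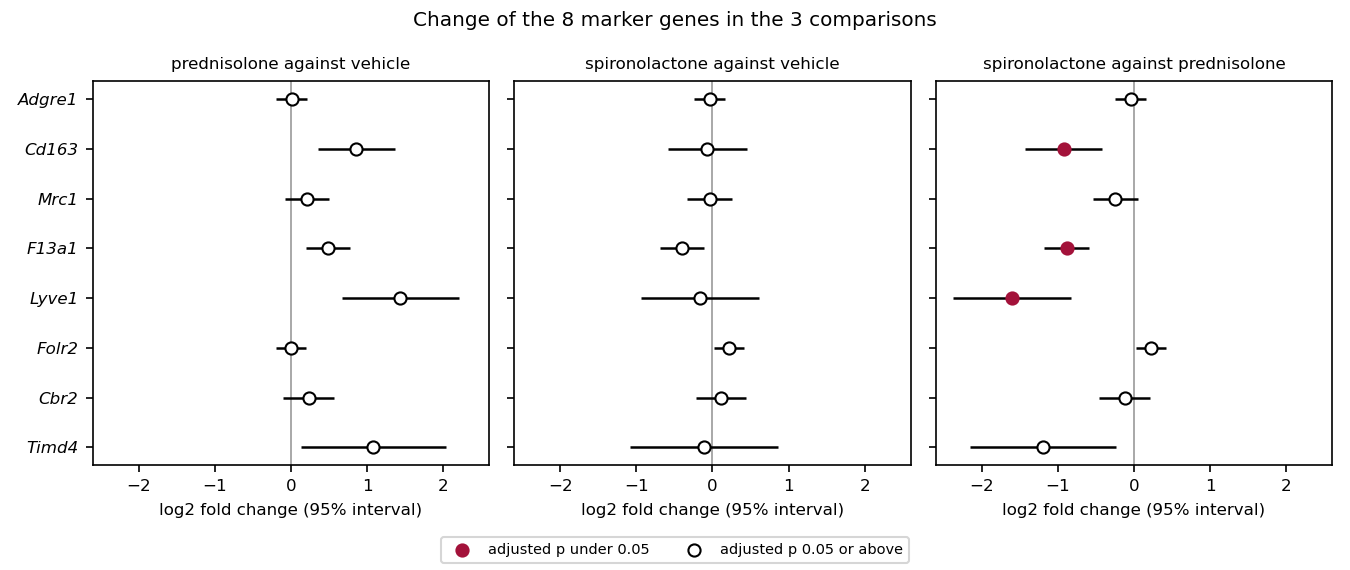
Log2 fold change of the 8 markers in the 3 comparisons with 95% intervals (lines), filled where the adjusted p of edgeR was under 0.05. The filled points are *Cd163* (-0.92), *F13a1* (-0.88), and *Lyve1* (-1.60) in spironolactone vs. prednisolone, and no point is filled in the comparisons with vehicle.

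Spironolactone vs. vehicle addressed what mineralocorticoid receptor antagonism does to the same cells. The markers had 2 log2 fold changes above 0 and 6 below, with a median of -0.05 and a range of -0.40 (*F13a1*) to 0.22 (*Folr2*). The spironolactone and vehicle libraries of every marker overlapped, while 13.5% of all genes tested had ranges that did not overlap. None of the 8 passed the adjusted threshold in edgeR, where 0.0181% of all genes did. Nor did any pass in DESeq2 on all 9 libraries, which called 294 of 16618 genes, or in limma-voom, which called 0 genes. Of the 8, 2 (*F13a1* and *Folr2*) had an unadjusted p under 0.05 in edgeR, against 9.29% of all genes tested. The 95% interval of *F13a1* was -0.69 to -0.11 and that of *Folr2* 0.03 to 0.42, and those of the other 6 included 0. It was -0.24 to 0.17 for *Adgre1*, -0.33 to 0.26 for *Mrc1*, and -0.22 to 0.45 for *Cbr2*, but -0.94 to 0.62 for *Lyve1*, -1.08 to 0.86 for *Timd4*, and -0.58 to 0.45 for *Cd163*. For the 3 scarce markers these wider intervals leave room for differences in either direction, which 3 libraries a group did not resolve.

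Spironolactone vs. prednisolone compared the drugs directly, and it shares its libraries with the comparisons above, which share the vehicle libraries with each other. *Lyve1*, *Cd163*, and *F13a1* were lower in spironolactone at an adjusted p under 0.05, or 3 of 8 markers, against 2.79% of genes tested that were called lower. *Lyve1* differed by -1.60 ± 0.34 (adjusted p = 0.0338), *Cd163* by -0.92 ± 0.23 (adjusted p = 0.0448), and *F13a1* by -0.88 ± 0.14 (adjusted p = 0.00358, edgeR). *Timd4* was lower in all 3 spironolactone libraries as well (-1.19 ± 0.42, adjusted p = 0.140), which made 4 of 8 markers with no overlap in this direction, against 15.2% of all genes. With any 1 library left out, *Timd4* differed by -1.50 to -0.91. It was called only without vehicle 3 (adjusted p = 0.0239, edgeR), and the highest adjusted p was 0.310. *Folr2* was the marker that lay the other way, with every spironolactone library above every prednisolone library (0.22 ± 0.09, adjusted p = 0.168), as was seen for 15.1% of all genes. The median over the 8 was -0.56, against 0.03 for all genes tested.

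The call for *F13a1* held when any 1 of the 9 libraries was left out, with an adjusted p of 0.000503 to 0.0249. The call for *Lyve1* was kept only without vehicle 1 or vehicle 3, and that for *Cd163* only without vehicle 1, vehicle 3, or spironolactone 2, although both differences kept their sign (*Lyve1* -1.75 to -1.33, *Cd163* -1.14 to -0.81). With the level of *Xist*, a measure of the mix of sexes in each pool, as a covariate, *Cd163* was not called (-0.93, adjusted p = 0.0800) and *Lyve1* and *F13a1* were, and with the replicate number as a block *F13a1* alone was. Without the neutrophil-rich libraries vehicle 3 and spironolactone 3 together, an alternative chosen after seeing the data, *F13a1* alone was called (-0.82, adjusted p = 0.0264), and *Timd4* was called in prednisolone vs. vehicle (1.71, adjusted p = 0.0468). Of the 12 neutrophil genes 10 lay above 0 in spironolactone vs. prednisolone, 7 of them without overlap (15.1% of all genes tested), and 0 were called. All 6 eosinophil genes tested lay above 0 there, with a median of 1.83. Of these, 4 were called higher, against 2.38% of all genes. The part of either list in the marker values was not tested. *Itgam*, the gate gene, was itself lower in spironolactone than in prednisolone (-0.43 ± 0.11, adjusted p = 0.0353).

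Each marker was also set against *Adgre1* within its own library, which needs no scaling between libraries. *Lyve1* had 11.9 to 23.2 counts per 1000 *Adgre1* counts in vehicle, 10.3 to 20.0 in spironolactone, and 35.9 to 64.8 in prednisolone. *Cd163* had 16.3 to 27.9, 17.4 to 25.1, and 34.2 to 46.3. *F13a1* had 617 to 919, 568 to 629, and 958 to 1196. For *Timd4* the vehicle and prednisolone ranges nearly met, at 5.05 to 17.6 and 18.5 to 23.2. *Mrc1* (618 to 769 in vehicle and 717 to 854 in prednisolone), *Cbr2*, and *Folr2* overlapped between these groups. The markers of this list therefore did not keep a fixed proportion to one another across libraries.

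The likeness of the markers was described by Pearson's r of log2 CPM over the 9 libraries, which share groups and library depth. *Cd163* and *Lyve1* were the most alike pair, with r = 0.95, and 0.83 when each library was taken as its deviation from its group mean. *Cd163* and *Mrc1* followed with 0.82, and 0.77 within groups. *F13a1* and *Folr2* ran opposite to each other, with r = -0.79, and -0.81 within groups. *Timd4* had r = 0.60 with *Lyve1* and 0.52 with *Cd163* over all libraries, but -0.22 and -0.32 within groups, so it shared the group levels of those markers and not their differences between replicates. *Adgre1* had r = 0.68 with *Mrc1* and -0.09 with *Timd4*. These are descriptions of 9 points.

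**Figure D4:**
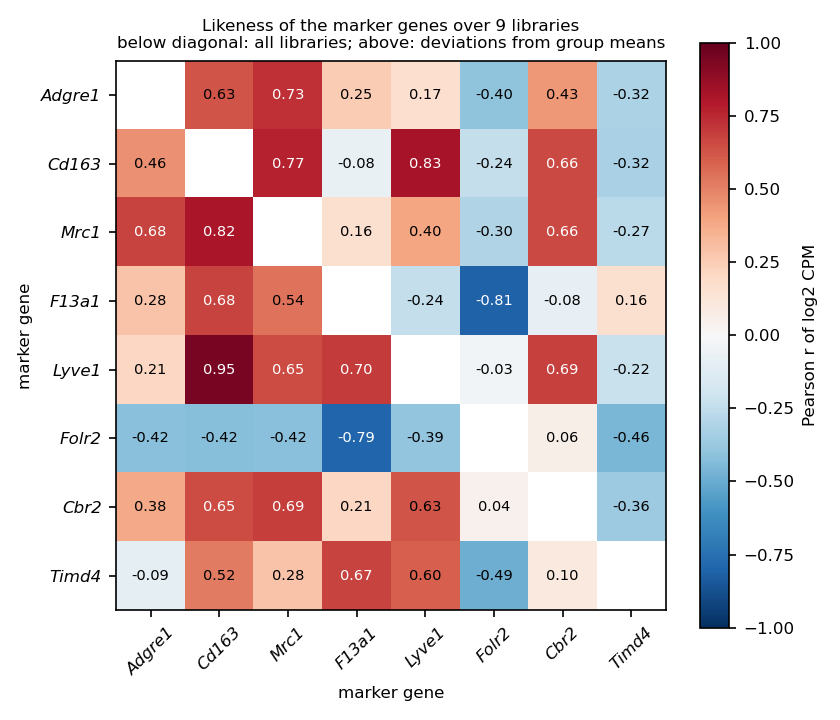
Pearson's r between the 8 markers over 9 libraries, from log2 CPM below the diagonal and from deviations from the group means above it. Below the diagonal, *Cd163* and *Lyve1* have the highest value (0.95), and *F13a1* and *Folr2* the lowest (-0.79).

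The 3 genes most like each marker over the 9 libraries were then taken from all genes tested. For *Cd163* these were *Ptprs*, a receptor-type tyrosine phosphatase (r = 0.98), *Slc35c1*, a nucleotide sugar transporter (0.96), and *Gm52877* (0.96). For *Lyve1* they were *Dus4l* (0.99), *Dcstamp*, which macrophages need for cell fusion (0.98), and *Ptpn7* (0.96). For *F13a1* they were *Pid1* (0.98), *Traf3*, an adaptor of TNF receptor family signaling (0.98), and *Dcaf10* (0.97). *Mrc1* was most like *Plxnd1*, a semaphorin receptor (0.97), *Man1a* (0.95), and *Sec24c* (0.95), and *Adgre1* was most like the adaptor *Sh2b3* (0.95), *Tab2* (0.94), and *Pias1* (0.92). *Timd4* was most like *Tnfrsf23* (0.97), *Atp2a3*, a calcium pump (0.95), and *Egln1*, a prolyl hydroxylase (0.95), *Cbr2* like *Git1* (0.96), *Dnlz* (0.96), and *Plcxd1* (0.95), and *Folr2* like *Zfp746* (0.96), *Dhodh* (0.94), and *Asb16* (0.94). With 16618 genes and 9 libraries such values describe these libraries, and no marker appeared in the list of another.

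A list of 25 companion genes of resident-like macrophages, all tested, did not share the direction of the markers. In prednisolone vs. vehicle 9 had a log2 fold change above 0 and 16 below, with a median of -0.15. *Ccl8*, a chemokine of resident macrophages, fell by 1.35 on the log2 scale (SE 0.16, adjusted p = 0.00141), from 8.70, 10.7, and 11.2 CPM in vehicle to 4.10, 3.48, and 4.42 CPM in prednisolone. *Cd5l*, a secreted scavenger receptor protein, fell by 0.99 (SE 0.21, adjusted p = 0.0357), from 31.6, 22.6, and 26.4 CPM to 16.6, 9.72, and 14.3 CPM. These were 2 of 25 called lower, where 0.758% of all genes were called lower, and 0 of 25 were called higher. The companions with the most counts in vehicle, *Selenop* (mean 2204 CPM) and *Stab1* (1101 CPM), differed by -0.42 ± 0.16 and -0.15 ± 0.22, and neither passed the test.

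In spironolactone vs. prednisolone 6 of 25 companions were higher and 0 lower at the adjusted threshold, where 2.38% of all genes were called higher. *Ccl8* was higher by 1.55 ± 0.16 (adjusted p = 0.000344), *Cd5l* by 1.33 ± 0.21 (adjusted p = 0.00587), *Gas6*, a bridge between dying cells and their receptors, by 0.83 ± 0.15 (adjusted p = 0.0103), and *Clec10a*, a galactose-type lectin, by 0.48 ± 0.10 (adjusted p = 0.0135). *Selenop* and *Igf1* were the other 2. None of the 25 was called in spironolactone vs. vehicle, where 15 were above 0 and 10 below. The 15 core macrophage genes, used as a check of macrophage RNA in general, had a median of -0.21 in prednisolone vs. vehicle and 0.34 in spironolactone vs. prednisolone. *Aif1* was called lower in the first of these (-0.76 ± 0.14, adjusted p = 0.0138), and *Aif1*, *C1qb*, *C1qc*, *Ctsd*, and *Trem2* were called higher in the second. *Lyve1*, *Cd163*, and *F13a1* lay on the opposite side of 0 from the medians of both lists in each comparison with prednisolone. They were singled out by their calls, with their direction known, so a contrast between markers and these lists was not tested. *Folr2* (0.22) lay on the side of both medians in spironolactone vs. prednisolone, where the other 7 markers lay below 0. In prednisolone vs. vehicle all 8 lay above 0, *Adgre1* (0.01) and *Folr2* (0.00) by little.

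**Figure D5:**
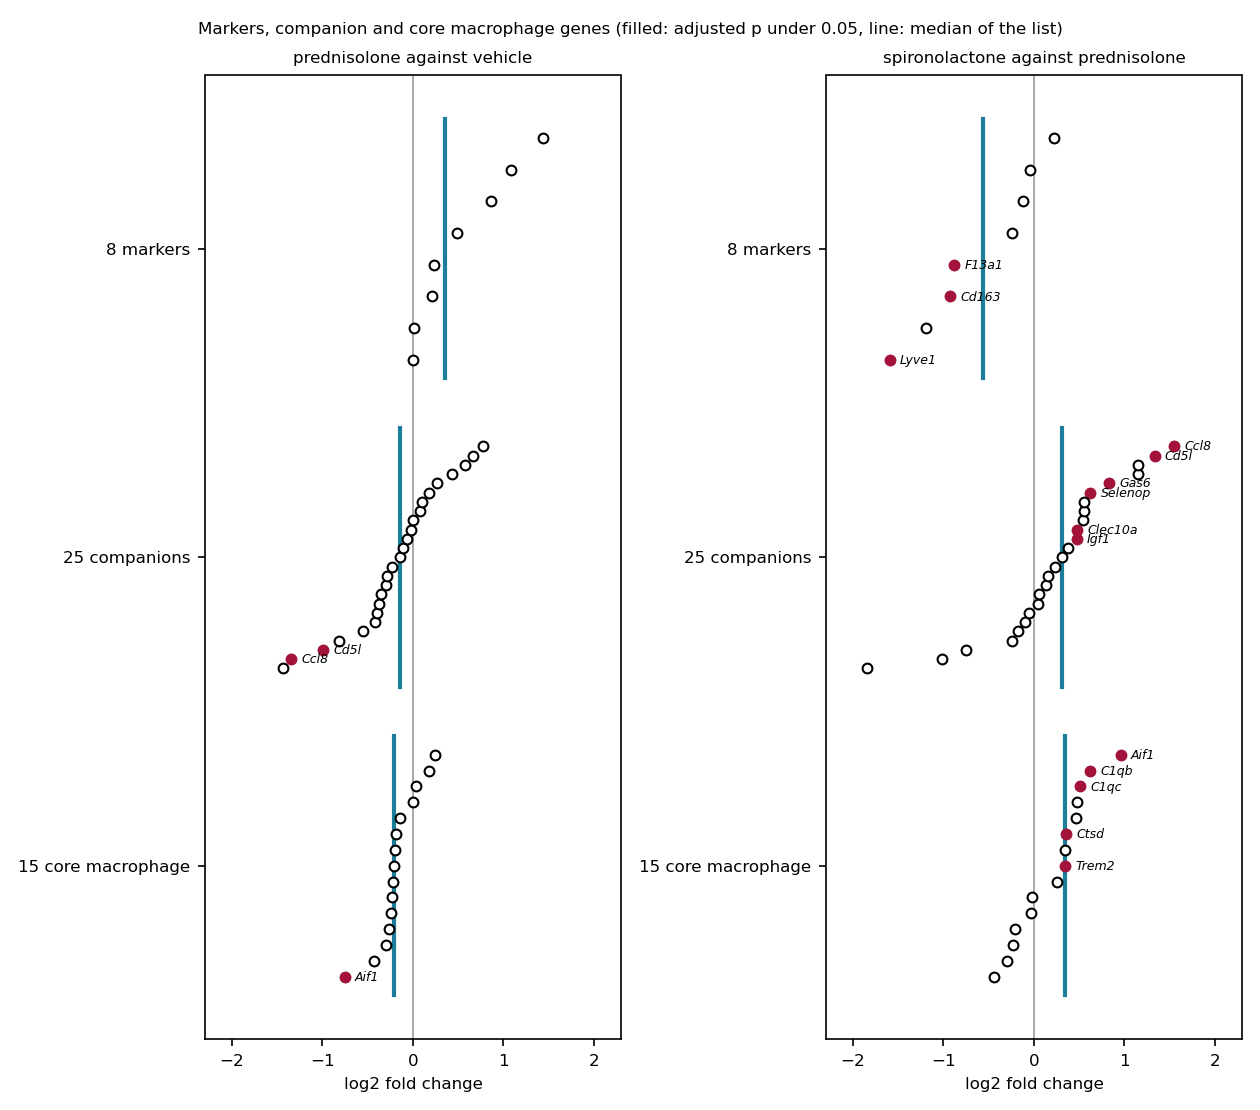
Log2 fold changes of the 8 markers, 25 companion genes, and 15 core macrophage genes in 2 comparisons, 1 point per gene, filled and named where the adjusted p of edgeR was under 0.05, with a line at the median of each list. The marker median is 0.36 and the companion median -0.15 in prednisolone vs. vehicle, and they are -0.56 and 0.31 in spironolactone vs. prednisolone.

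Of 18 paralogs and relatives of the markers, 14 passed the count filter. *F13b*, *Folr1*, *Havcr1*, and *Timd2* did not, with no more than 20 counts in any library. *Cd44*, a hyaluronan receptor related to *Lyve1*, was called in spironolactone vs. prednisolone (-0.58 ± 0.11, adjusted p = 0.0122). It measured 731, 782, and 664 CPM in spironolactone and 1179, 1027, and 1039 CPM in prednisolone, with all vehicle libraries between 742 and 944 CPM. *Tgm2*, a transglutaminase related to *F13a1*, differed by 0.05 ± 0.12 in prednisolone vs. vehicle and by -0.28 ± 0.12 in spironolactone vs. prednisolone, and neither passed the test.

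A list of 12 glucocorticoid-induced genes was examined as a check of the treatment. In prednisolone vs. vehicle 10 of 12 lay below 0, where 47.8% of all genes tested lay above 0, and *Per1* was called lower (-1.22 ± 0.17, adjusted p = 0.00436). The list as a whole did not rise with prednisolone, so it did not serve as a check of the treatment. The reason was not tested. In spironolactone vs. vehicle 8 of 12 lay below 0, with a median of -0.39 against -0.31 in prednisolone vs. vehicle, and *Per1* was at -0.72 (adjusted p = 0.156). *Per1* is a clock gene that glucocorticoids induce in many tissues. *Sgk1*, at a vehicle mean of 357 CPM, and *Cdkn1a*, at 380 CPM, had the most counts of the list, and neither passed the test. In spironolactone vs. prednisolone 7 of 12 lay above 0 and 5 below. *Zbtb16* was called higher there (0.73 ± 0.19, adjusted p = 0.0377) and *Errfi1* lower (-0.59 ± 0.13, adjusted p = 0.0179). Of all genes tested, 2.38% were called higher in that comparison and 2.79% lower. Of the eosinophil genes tested, 4 of 6 were called lower in prednisolone vs. vehicle, against 0.758% of all genes, with *Alox15* at 49.6 to 70.9 CPM in vehicle and 14.9 to 24.2 CPM in prednisolone (-1.73 ± 0.22, adjusted p = 0.00545).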

How the data were processed

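Transcript counts were measured in 9 libraries of sorted myeloid cells, 3 per treatment. The deposited values are raw counts per gene, made by the authors by alignment to mm39 with HISAT2 (2.2.1 in the submitters' processing notes) and counting with HTSeq (0.11.3). The strand setting and annotation release are not given in the sources used here. Deposited tables of the authors' own DESeq2 comparisons (fold changes and p-values) were not used. Lines naming no gene held 17.2% to 21.8% of each library and were left out.

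Groups came from the sample labels. Replicates are pools of different mice and were compared by chi-square, which per degree of freedom was 19.0 to 62.0 within groups, so no 2 libraries were alike within sampling noise. Counts were fitted in edgeR 4.0.16 (R 4.3.3) with TMM scaling, filterByExpr (minimum count 10, minimum total 15, leaving 16618 genes), and robust quasi-likelihood tests over all 9 libraries, two-sided; p-values were adjusted over these genes by Benjamini-Hochberg and called under 0.05. Intervals are 95% and unadjusted, and SE is the fold change over the root of F. The spread is over 3 pools per group. Log2 CPM for correlations used a prior count of 2. The code was tested on simulated data. Promoters and exon lengths came from GRCm39 with GENCODE, and 1 marker promoter is not reported here; no protein sequences were compared. DESeq2 1.42.0, limma 3.58.1, other scalings, filters, covariates, and left-out libraries were tried as alternatives.

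The markers and gene lists were chosen with earlier results of these data known. Named genes are the 8 markers and the 3 tested genes most correlated with each. From the other lists, the rule was up to 4 genes past the threshold in any comparison and the 2 highest in vehicle. Not every gene within this rule is named, and the changes of the dendritic and fibroblast lists are not described. *Igf1* and *Trem2* were named beyond this rule, after their values were seen, to complete a count, as were the lymphatic and platelet genes other than *Pdpn*, *Flt4*, *Ppbp*, and *Gp1ba* to account for those lists and *F13b*, *Folr1*, *Havcr1*, and *Timd2* to name relatives that were not tested.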

Additional observations from a re-analysis of the deposited data

How the results depend on the processing

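In prednisolone vs. vehicle, the count of 8 markers called, 0 as reported, was 3 in DESeq2 on all 9 libraries, 4 in DESeq2 on the 2 groups only, 4 with no low-count filter, 1 when scaled to core macrophage genes, 1 without robust estimation, 1 without the neutrophil-rich vehicle 3 and spironolactone 3 (an alternative chosen after seeing the data), and 0 to 2 when any 1 library was left out (2 without vehicle 1, 1 without vehicle 2 or vehicle 3). All of these calls were higher in prednisolone. In spironolactone vs. vehicle the count of 0 was 1 (*F13a1*, lower) with no low-count filter and 0 when any 1 library was left out. In spironolactone vs. prednisolone the count of 3 was 4 with edgeR or DESeq2 on the 2 groups only or no low-count filter (*Timd4* added), 2 with the *Xist* covariate (*Cd163* lost), 1 without the neutrophil-rich pair, and 1 to 4 when any 1 library was left out. It was 1 without each of vehicle 2, spironolactone 1, spironolactone 3, and every prednisolone library in turn. Using the replicate block it was 1 (*F13a1*), with *Cd163* at -0.94 (adjusted p = 0.0518) and *Lyve1* at -1.57 (adjusted p = 0.0813). Of 9 pairs of libraries with the same number in different groups, 2 had a correlation of deviations over 0.1 (range -0.04 to 0.15). Both were of vehicle with spironolactone, at 0.12 for replicate 1 and 0.15 for replicate 3. Vehicle and spironolactone libraries with different numbers had correlations of -0.17 to 0.04. The main fit did not pair libraries by number, and whether those of these 2 groups were handled together was not tested.

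The calls over all genes moved more. From 293 in prednisolone vs. vehicle they were 743 (DESeq2), 695 (DESeq2, 2 groups), 1019 (no low-count filter), 120 (neutrophil-rich pair left out), and 69 (without prednisolone 2) to 826 (without vehicle 1). From 3 in spironolactone vs. vehicle they were 294 (DESeq2), 246 (DESeq2, 2 groups), 528 (no low-count filter), 8 (replicate block), 0 with limma-voom, core macrophage scaling, no robust estimation, the *Xist* covariate, or the neutrophil-rich pair left out, and 0 to 34 with 1 library left out. From 859 in spironolactone vs. prednisolone they were 1739 (DESeq2), 1598 (edgeR, 2 groups), 2142 (DESeq2, 2 groups), 1504 (core macrophage scaling), 1940 (no low-count filter), 285 (neutrophil-rich pair left out), and 232 (without prednisolone 2) to 1898 (without vehicle 1). The reported split of 395 higher and 464 lower was 270 and 1234 under core macrophage scaling and 327 and 590 with library totals only. The cause of these shifts was not tested.

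Signs changed only where values were near 0 or spread widely. *Folr2* in prednisolone vs. vehicle was -0.0045 with at least 10 counts in every library, and -0.042 to 0.042 with 1 library left out. *Adgre1* was -0.036 in that comparison without the neutrophil-rich pair, and with 1 library left out it was -0.052 to 0.045 there, -0.085 to 0.010 in spironolactone vs. vehicle, and -0.089 to 0.018 in spironolactone vs. prednisolone. In spironolactone vs. vehicle, leaving out 1 library gave -0.28 to 0.23 for *Cd163*, -0.17 to 0.12 for *Mrc1*, -0.40 to 0.19 for *Lyve1*, -0.047 to 0.31 for *Cbr2*, and -0.42 to 0.51 for *Timd4*, and without the neutrophil-rich pair *Cbr2* was -0.12 and *Timd4* 0.47. Scaling to core macrophage genes moved the median of all genes in spironolactone vs. prednisolone by -0.12, from 0.03 to -0.09, with the same number of markers called (3), and no other scaling or comparison moved it by more than 0.1. The limits are 3 pooled libraries per group, bulk RNA, and unknown strand setting.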

Other observations

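All 12 endothelial genes lay above 0 in spironolactone vs. vehicle, with a median of 1.03 and 10 of 12 without overlap (13.5% of all genes tested, in either direction), and 0 passed the adjusted threshold. In spironolactone vs. prednisolone 5 of 12 were called higher, against 2.38% of all genes, among them *Pecam1* (1.09 ± 0.18) and *Cdh5* (1.13 ± 0.22). All 9 skeletal muscle genes tested were above 0 in spironolactone vs. vehicle, with a median of 0.94 and 0 called. In prednisolone vs. vehicle 7 of these 9 were above 0, with a median of 0.49. *Myh1* was called higher there (1.07 ± 0.22, adjusted p = 0.0239), where 167 of 16618 genes were called higher. Of 9 lymphocyte genes tested, 3 were called higher in spironolactone vs. prednisolone, with a list sum of 8.44 to 13.4 CPM against 1.96 to 3.39 CPM. The 12 neutrophil genes had a median of -1.48 in prednisolone vs. vehicle with 0 called, where their sum was 824, 1112, and 5385 CPM in vehicle and 883 to 1142 CPM in prednisolone, so that vehicle 3 alone stood above the prednisolone libraries. These values are given as measured, and their part in the marker levels was not tested.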
